A study of Vitis vinifera with 6 samples.

Results

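The class IV chitinases of chromosome 5 and the beta-1,3-glucanases of chromosome 8 were examined in leaves of grapevine (Vitis vinifera, cultivar Syrah). They comprise 10 loci, 7 chitinases and 3 glucanases, and each had 1 of the 34369 probes on the array. The loci were chosen by locus name, with earlier results of these data known. Their counts and medians beside those of all probes are therefore descriptions only. Total RNA of fully expanded leaves was labelled with a single dye and hybridised to Agilent arrays, 3 for control plants and 3 for plants labelled as overexpressing CARPO, one of the plant-specific NAC transcription factors. The latter are called OX arrays, after their label. All plants were of the BVRC12 clone, were regenerated from anther callus and grew in a greenhouse. The labels describe selected transgenic lines and biological replicates. They do not give the number of lines, the promoter that drives the transgene, what the control plants carry or the age of the leaves. Whether the replicates of a group came from different lines is likewise not given, so the spread between replicates is that between these samples.

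Chitinases cut chitin, the polymer that stiffens fungal cell walls, and plants have no chitin of their own. Beta-1,3-glucanases cut the beta-glucan that lies beside chitin in many fungal walls, and they also degrade callose, a plant glucan laid down at wounds and at the channels between cells. Both families count among the pathogenesis-related proteins, which accumulate at infection, after wounding and in ageing tissue. In grape berries class IV chitinases are among the abundant proteins of the ripe fruit and contribute to haze in wine. The comparison asked whether the leaf transcripts of these enzymes differ between plants labelled as overexpressing CARPO and control plants. The identity of each locus as a chitinase or a glucanase is that of the rule by which it was chosen, and the files give no gene name or product. A role finer than the family is therefore not given for any single locus.

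The arrays were checked before the enzymes. The 75th percentile of spot intensity ran from 668 to 1234 over the 6 arrays. The share of probes well above background ran from 68.4% to 74.5%, and 0 spots were saturated. OX array 3 had the lowest share and 2103 spots marked as outliers, where the other 5 arrays had 15 to 607. The probe of VIT_08s0007g07670, the locus taken as CARPO from knowledge outside the labels and files, had intensities of 12.4, 50.4 and 25.3 on control arrays 1 to 3. On OX arrays 1 to 3 it had 10.1, 15.1 and 271, so only OX array 3 lay above the controls. The spot was well above background on 5 of the 6 arrays and not on control array 1. The lowest intensity so marked was 12.9 on control array 1, and 7.53 and 8.89 on OX arrays 1 and 2. The probe was thus near that floor on these arrays. The limma difference was 0.47 (SE 1.31, adjusted p = 0.892), and without OX array 3 it was -1.0. This probe therefore does not bear out the label of OX arrays 1 and 2, and directions below are those of the label. Whether the probe detects the transcript of the transgene was not tested, so the label is not refuted either. OX array 3 also stood apart over all probes, with Pearson's r of 0.810 to 0.854 with the other 5 arrays across 18929 probes, where the other pairs had 0.883 to 0.974. It was the only array of its scan. Differences below are given with and without it.

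All 6 spots of 9 of the 10 probes had signal well above background, and none (0) of those spots was marked as an outlier. The 1 exception was the chitinase VIT_05s0094g00280, whose intensity was 3.54, 2.25 and 2.76 on control arrays 1 to 3 and 1.86, 2.47 and 6.0 on the OX arrays. It reached the mark of well above background on 0 of 6 arrays, where the lowest intensity with that mark was 7.53 to 23.4 depending on the array. No fold is given for it. The other 9 probes were tested with limma among 23752 probes, on log2 intensity relative to each array's 75th percentile.

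All 9 tested probes had a fitted difference above 0, from 0.13 to 3.17 on the log2 scale, but none (0 of 9) passed an adjusted p of 0.05 in limma. Across all 23752 probes 0.0800% passed, and 50.3% had a difference above 0. The median difference was 1.14 for the 9 enzymes, 1.67 for the 6 chitinases and 0.63 for the 3 glucanases, against 0.0038 for all tested probes. Under normexp background correction the median of the 9 was 0.76 and 4 chitinases had a ratio over 1.5 times smaller. Those were VIT_05s0094g00200 (1.09 in place of 2.21 on the log2 scale), VIT_05s0094g00220 (1.53 in place of 3.17), VIT_05s0094g00320 (1.08 in place of 2.19) and VIT_05s0094g00350 (0.47 in place of 1.13). At an unadjusted p under 0.05 in limma there was 1 of the 9, the chitinase VIT_05s0094g00200, where 5.85% of all probes were so called in that direction. Levels of all 3 OX arrays lay above all 3 controls at 2 of the 9, the chitinases VIT_05s0094g00200 and VIT_05s0094g00220. The same was seen at 10.5% of the 21507 tested probes without an outlier spot. No enzyme (0 of 9) lay wholly below the controls, where 13.7% of those probes did. Without OX array 3 the picture was more mixed. Then 7 of the 9 had a difference above 0 and 2 below, the median was 0.95, and 0 of 9 passed in limma (0.415% of 24350 probes tested then). At an unadjusted p under 0.05 in that limma fit there were 4 of the 9 and 19.1% of all probes. Both remaining OX arrays lay above all controls at 3 of the 9, against 19.2% of all probes, and below all controls at 1, against 20.1%. Those 3 were VIT_05s0094g00200, VIT_05s0094g00220 and VIT_05s0094g00360, and the 1 below was the glucanase VIT_08s0007g06040. In bulk leaf, more transcript per cell and more cells with the transcript cannot be told apart.

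**Figure D1:**
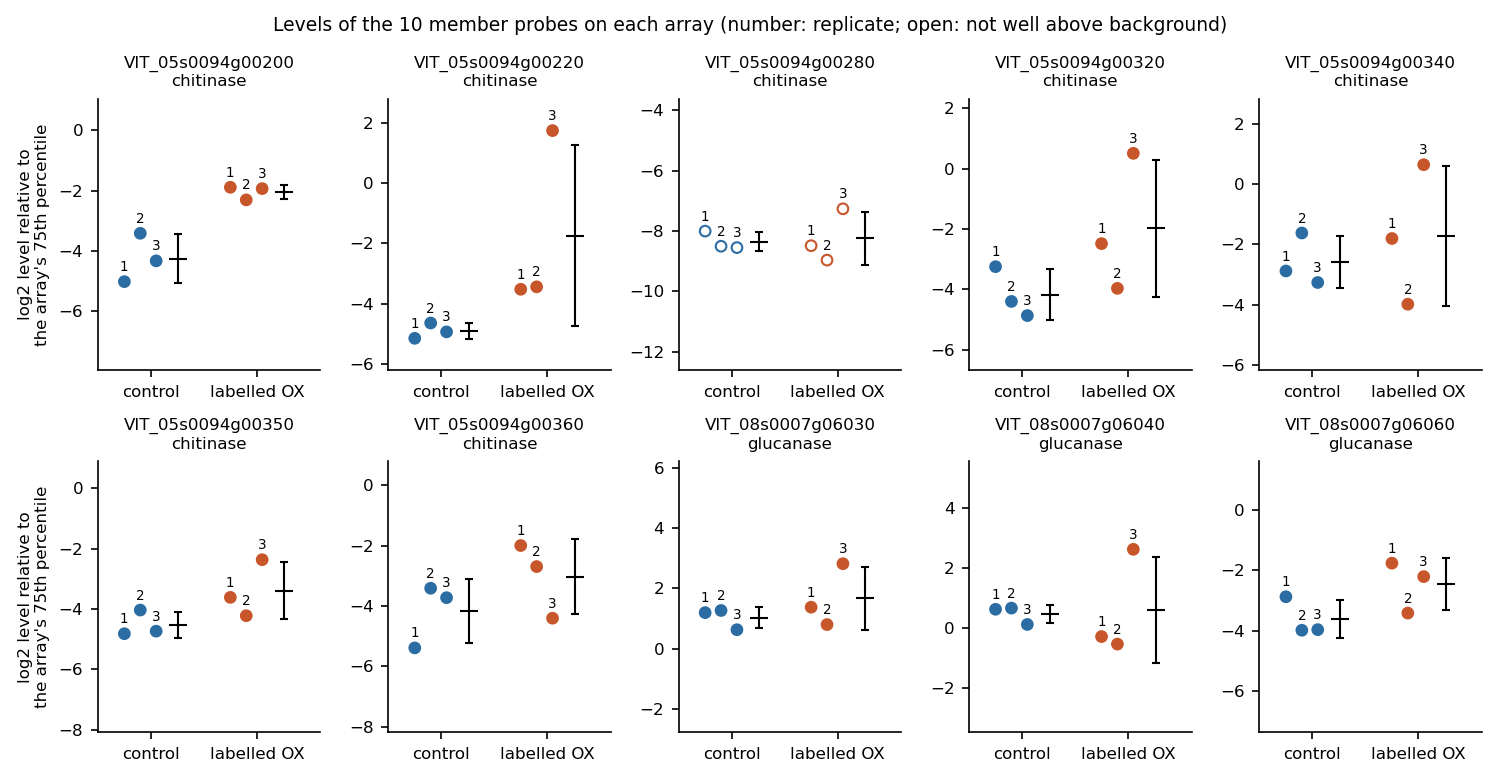
Log2 level of each of the 10 probes relative to the array's 75th percentile (y axis, 9 log2 units in every panel, different position) on the 3 control and 3 OX arrays (labelled OX), numbered by replicate. Bars show the mean and SD of 3 arrays and open points were not well above background. VIT_05s0094g00200 and VIT_05s0094g00220 show no overlap between the groups, and OX array 3 is the highest array at 6 of the 9 tested probes (29.1% of all).

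Among the chitinases, VIT_05s0094g00200 had the most even values on the OX arrays. Its intensity was 28.1, 76.7 and 51.6 on control arrays 1 to 3, and 180.4, 249 and 242 on the OX arrays. The groups did not overlap, and the controls differed among themselves more than the other group did. The log2 level averaged -4.25 ± 0.80 over the controls and -2.04 ± 0.23 over the OX arrays (SD, n = 3 each). The limma difference was 2.21 (SE 0.43), a 4.63-fold ratio with a 95% confidence interval of 2.24 to 9.56, an unadjusted p of 0.00196 and an adjusted p of 0.121. The interval lies above 1, yet the probe did not pass among 23752 probes, and with normexp background correction the ratio was 2.13-fold (adjusted p = 0.787), below that interval. An exact two-sided permutation test over the 6 arrays gave p = 0.1, the smallest that 3 against 3 allows. Within scan 1 (1 array each) the difference was 3.13 and within scan 2 (1 OX array, 2 controls) it was 1.56. Without OX array 3 it was 2.16 (95% interval 0.91 to 3.41), so the size of the difference did not rest on that array.

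The chitinase VIT_05s0094g00220 had the highest value of any chitinase on a single array relative to its controls. Its intensity was 25.7, 32.8 and 33.9 on control arrays 1 to 3. On the OX arrays it was 58.2, 114 and 3087. The groups did not overlap, and OX array 3 lay far above the other 2 arrays of its group. Relative to the control mean, OX arrays 1, 2 and 3 were 2.61-fold, 2.76-fold and 100.3-fold. The limma difference of 3.17 had an SE of 1.42, a 95% interval of -0.28 to 6.61 and an adjusted p of 0.368. Without OX array 3 the difference was smaller, 1.43, with a narrower 95% interval of 0.85 to 2.01 and an adjusted p of 0.0752. Within scan 1 the difference was 1.63 and within scan 2 it was 1.35. Controls of this probe differed by 1.42-fold at most, the least of the 6 tested chitinases. With normexp background correction the limma ratio over all arrays was 2.88-fold in place of 8.98-fold (adjusted p = 0.991).

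VIT_05s0094g00320 and VIT_05s0094g00340, also chitinases, were high on the same array. The intensity of VIT_05s0094g00320 was 95.9, 38.7 and 35.4 on control arrays 1 to 3 and 119, 78.9 and 1315 on the OX arrays. After scaling, OX array 2 lay within the control range and OX array 3 was 25.7-fold the control mean. Its limma difference of 2.19 (SE 1.14, adjusted p = 0.431) became 0.95 without OX array 3. The intensity of VIT_05s0094g00340 was 123, 264 and 107 on control arrays and 190.3, 77.6 and 1435 on OX arrays. OX array 2 was below every control, OX array 1 within their range and OX array 3 at 9.39-fold their mean. The limma difference of 0.87 (SE 1.16, adjusted p = 0.753) changed sign without OX array 3, to -0.31. It was also of opposite sign in the scans, 1.08 in scan 1 and -1.54 in scan 2.

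The chitinase VIT_05s0094g00350 was below the array's median intensity on 5 arrays, as was VIT_05s0094g00220. VIT_05s0094g00320 and VIT_05s0094g00360 were below it on all controls and on 1 OX array each, and VIT_05s0094g00200 on all controls. The intensity of VIT_05s0094g00350 was 32.2, 49.8 and 38.8 on control arrays 1 to 3 and 54.4, 65.9 and 179 on the OX arrays. Scaled, OX array 2 lay within the control range and OX arrays 1 and 3 above it. The limma difference was 1.13 (SE 0.52, adjusted p = 0.377), and 0.61 without OX array 3. VIT_05s0094g00360 was the 1 tested chitinase whose level on OX array 3 was not above every control. Its intensity was 21.7, 76.7 and 78.1 on control arrays and 167, 190.3 and 43.5 on OX arrays. OX arrays 1 and 2 lay above all controls, while OX array 3 was among them at 0.853-fold their mean. Its limma difference was 1.14 (SE 0.78, adjusted p = 0.54), and without OX array 3 it was 1.83 (95% interval 0.20 to 3.46, adjusted p = 0.221).

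The glucanases VIT_08s0007g06030 and VIT_08s0007g06040 were above the array's median intensity on every array. The intensity of VIT_08s0007g06030 was 2081, 1963 and 1598 on control arrays 1 to 3 and 1729.7, 2143 and 6498 on the OX arrays. The scaled level of OX array 2 lay within the control range, OX array 1 lay just above it and OX array 3 was 3.45-fold the control mean. The log2 level averaged 1.03 ± 0.35 over the controls and 1.66 ± 1.04 over the OX arrays (SD, n = 3 each). The limma difference was 0.63 (SE 0.54, adjusted p = 0.618), and without OX array 3 it was 0.06 (95% interval -0.72 to 0.84).

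For VIT_08s0007g06040 the OX arrays lay on both sides of the controls. Its intensity was 1406, 1297 and 1128 on control arrays 1 to 3 and 550.3, 855 and 5653 on the OX arrays. Relative to the control mean, OX arrays 1, 2 and 3 were 0.594-fold, 0.5-fold and 4.42-fold, and none of them overlapped the controls. The limma difference over all arrays was 0.13 (SE 0.84, 95% interval -1.92 to 2.18, adjusted p = 0.955). Without OX array 3 it was -0.88 (95% interval -1.52 to -0.23, adjusted p = 0.165), and without control array 3 it was -0.04. Differences within scans were -0.91 in scan 1 and -0.92 in scan 2, both of the sign seen without OX array 3.

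The remaining glucanase, VIT_08s0007g06060, was higher than every control on OX arrays 1 and 3. Its intensity was 124, 51.7 and 66.3 on control arrays 1 to 3 and 197, 116 and 200.1 on the OX arrays. After scaling, OX array 2 lay among the controls. The limma difference was 1.15 (SE 0.53, 95% interval -0.14 to 2.43, adjusted p = 0.378). It was 1.02 without OX array 3, 1.11 within scan 1 and 0.56 within scan 2. Exact two-sided permutation tests gave p = 0.2 to 1.0 for the 7 tested enzymes whose OX arrays did not all lie on the same side of the controls.

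**Figure D2:**
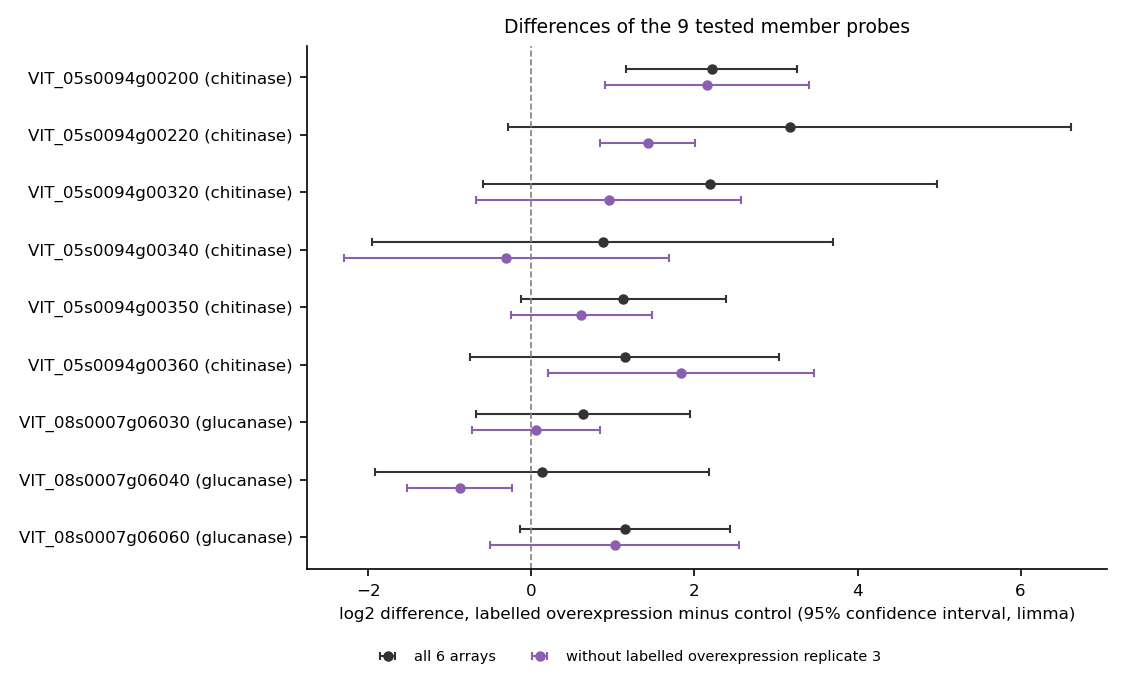
Limma log2 difference, labelled overexpression minus control (x axis), for the 9 tested probes, with 95% confidence intervals from all 6 arrays (dark) and without OX array 3 (purple). The interval of VIT_05s0094g00200 lies above 0 in both, that of VIT_05s0094g00220 narrows from -0.28 to 6.61 down to 0.85 to 2.01, and VIT_08s0007g06040 moves from 0.13 to -0.88.

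The enzymes were next set against the spread of all tested probes on each OX array, as a description of those arrays. On OX array 3, 8 of the 9 enzymes were at least 2-fold above the control mean, a level reached by 18.9% of the tested probes without an outlier spot. The exception was VIT_05s0094g00360. On that array VIT_05s0094g00220 had 72 of 23752 tested probes above it, VIT_05s0094g00320 had 229 and VIT_05s0094g00340 had 665. On OX array 1, 5 of the 9 were at least 2-fold above the control mean (10.9% of all), led by VIT_05s0094g00200 and VIT_05s0094g00360 with 317 and 434 probes above them. On OX array 2 there were 3 of the 9 (4.31% of all), VIT_05s0094g00200, VIT_05s0094g00360 and VIT_05s0094g00220, with 190, 411 and 420 probes above them. The chitinases VIT_05s0094g00200 and VIT_05s0094g00220 were thus at least 2-fold above the control mean on all 3 arrays. OX array 3 had the widest spread of the 3 arrays, its 5th and 95th percentiles over tested probes being -2.32 and 2.49, against -1.81 and 1.48 for OX array 1 and -1.40 and 0.93 for OX array 2.

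**Figure D3:**
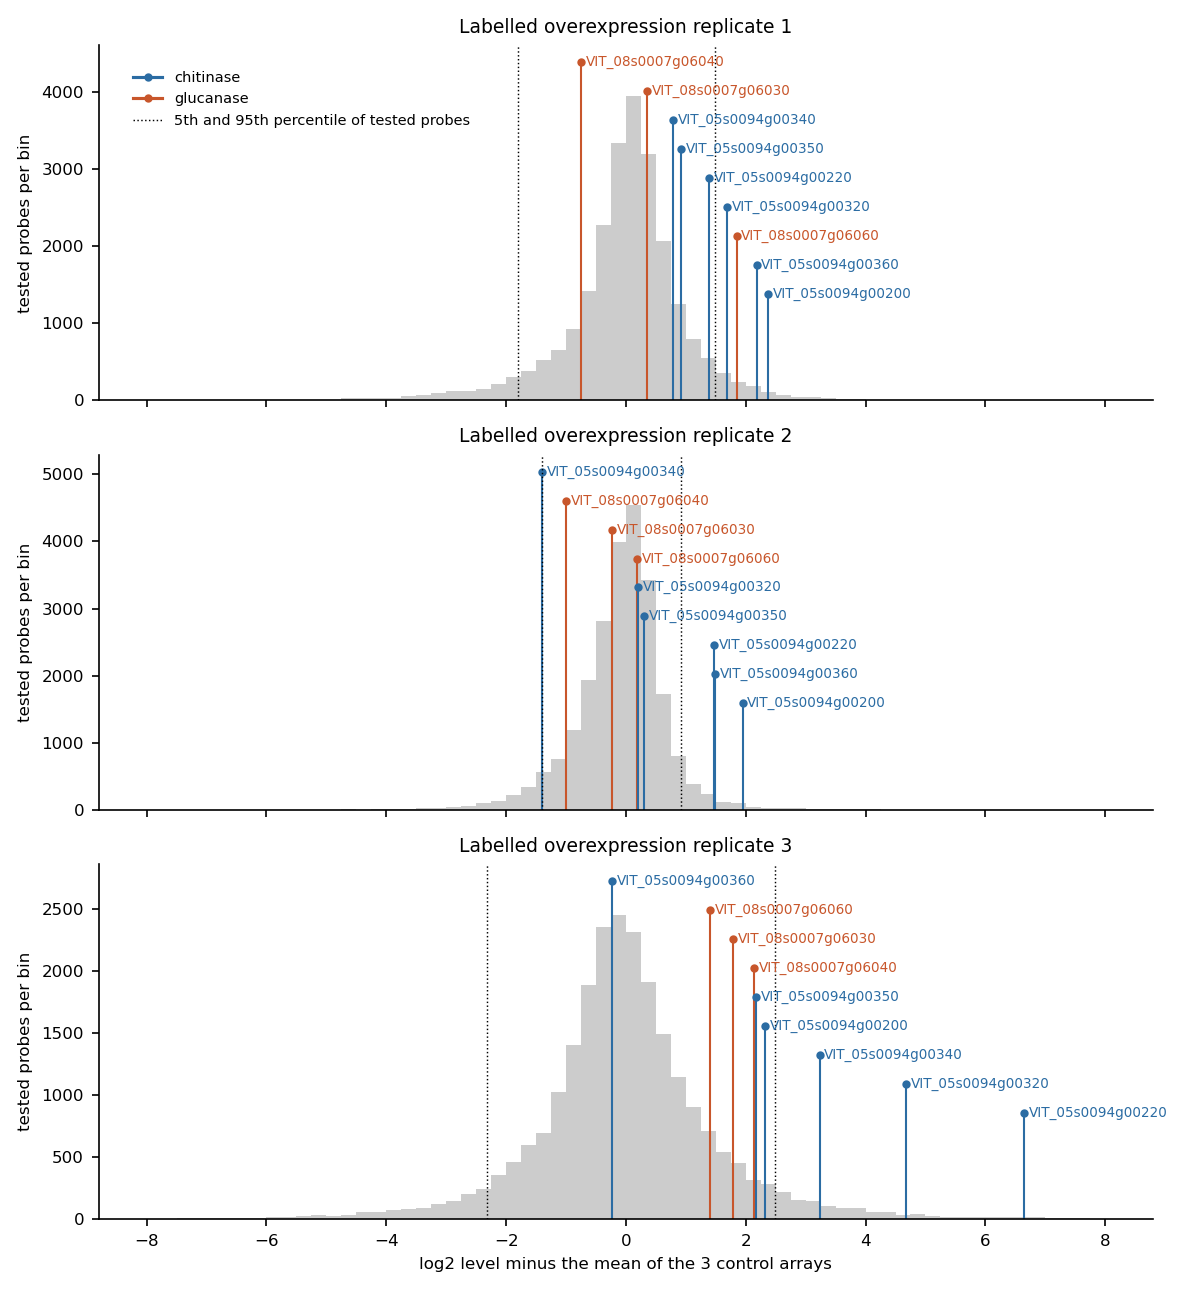
Log2 level minus the mean of the 3 control arrays (x axis) for all 23752 tested probes (grey bars, probes per bin, y axis) on each OX array, with the 6 chitinases (blue) and 3 glucanases (orange) marked at heights that only separate their names. Dotted lines are the 5th and 95th percentiles of the tested probes. VIT_05s0094g00220 lies at 6.65 on OX array 3 and at 1.39 and 1.47 on OX arrays 1 and 2.

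The members varied among themselves over the 6 arrays. Each probe was centred on its own mean over the arrays and the 6 chitinases were averaged. The resulting profile was -1.21, -0.38 and -1.10 on control arrays 1 to 3 and 0.66, -0.22 and 2.24 on the OX arrays. Each chitinase was then compared with the mean of the other 5. VIT_05s0094g00350 followed it most closely, with a root mean square difference of 0.448 log2 units, and VIT_05s0094g00360 least, with 1.77. For the same 2 means, the median difference of 17729 other grapevine loci with 6 usable spots well above background was 1.30 and 1.44. VIT_05s0094g00220 lay at 1.57, where the median of other loci was 1.05. VIT_05s0094g00200, VIT_05s0094g00320 and VIT_05s0094g00340 lay at 0.850, 1.06 and 0.984, each closer than the median of other loci (1.28, 1.17 and 1.23). The 2 other loci nearest to the profile of all 6 chitinases were VIT_00s0420g00040 (0.113) and VIT_00s0425g00040 (0.154), whose products the files do not name. For the 3 glucanases the profile was 0.03, -0.30 and -0.69 in controls and 0.16, -0.66 and 1.46 on the OX arrays. From the mean of the other 2 glucanases, VIT_08s0007g06030 lay at 0.208, VIT_08s0007g06040 at 0.813 and VIT_08s0007g06060 at 0.910, where the medians of other loci were 0.844, 0.798 and 0.938. The other loci nearest to the profile of all 3 were VIT_13s0019g02050 (0.105) and VIT_10s0071g00090 (0.108).

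**Figure D4:**
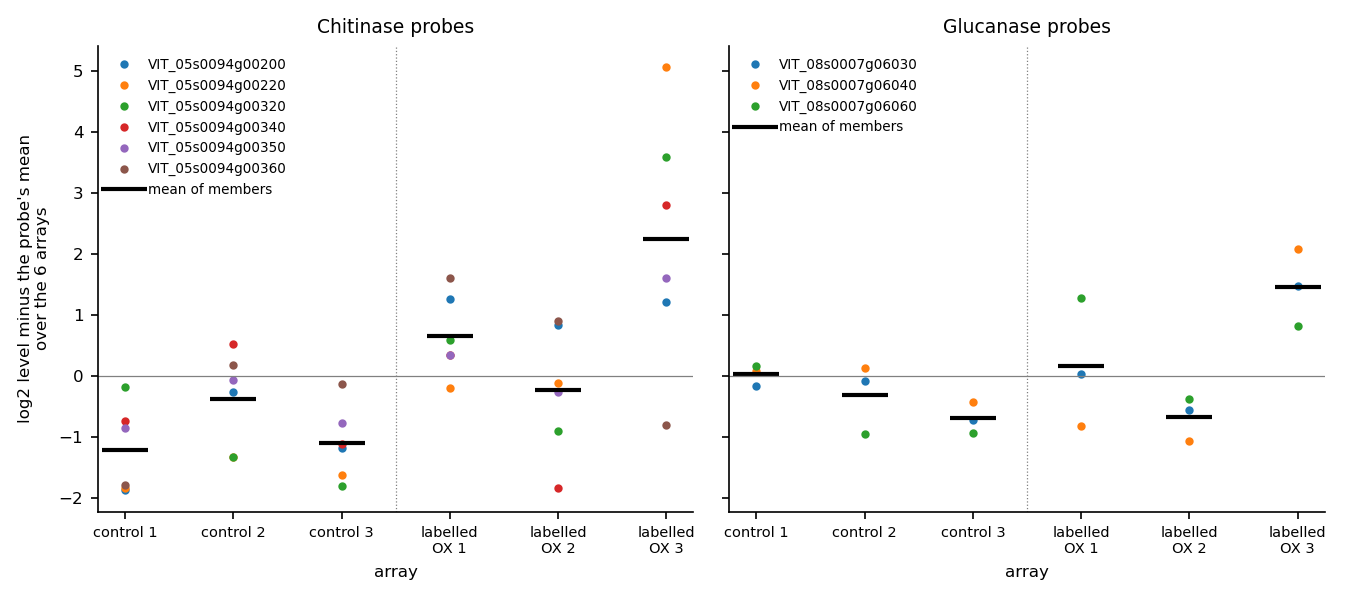
Log2 level of each tested probe minus its mean over the 6 arrays (y axis) on each array (x axis), for 6 chitinases (left) and 3 glucanases (right), with black bars for the mean of the family. On OX array 3 the chitinases spread from -0.80 (VIT_05s0094g00360) to 5.06 (VIT_05s0094g00220), while all 3 glucanases lie above 0.

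The loci numbered beside the enzymes were described in the same way. Of 151 other loci with names starting VIT_05s0094g, 113 were tested and none (0) passed in limma, 16 having an unadjusted p under 0.05 (15.1% of all tested probes in either direction). Their differences were above 0 at 64 and below at 49, with a median of 0.09. The 9 of these loci numbered between the first and the last member chitinase were then taken apart, a list chosen after values were seen. Of them 5 were tested, 4 of these being well above background on all 6 arrays. All 5 had differences above 0 (0.51 to 3.09, median 1.94), with OX array 3 the highest array at each (29.1% of all). At 2 of the 5 all OX arrays lay above all controls (10.5% of all). None (0 of 5) passed in limma, nor at an unadjusted p under 0.05, and their median without OX array 3 was 0.45. The 108 tested loci outside that stretch had a median of 0.07. At least 2-fold higher levels on OX array 3 were seen at 3 of those 5 and at 12 of the 108, against 5 of the 6 tested chitinases. Of all probes without an outlier spot 18.9% reached that level. Of 17 other loci numbered around the glucanases, 11 were tested, with 0 passed in limma and 0 at an unadjusted p under 0.05. Their median difference was -0.29, and none (0 of 11) was at least 2-fold above the control mean on OX array 3. Sequences of the probes were not used here, so whether a probe of 1 chitinase also binds transcripts of its near copies was not tested.

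The deposited value table held 9 of the 10 enzymes, all but VIT_05s0094g00280. Its column of OX array 3 was within 0.1% of the mean scanner signal of OX arrays 1 and 2, after scaling by 1 number, at 99.97% of 23065 probes and at all 9 enzymes. In that table VIT_05s0094g00220 stood at 84.6 for OX array 3, between 81.6 and 86.3 for OX arrays 1 and 2, where the scanner file had an intensity of 3087. With limma on the table, 3 of the 9 enzymes passed, where 3114 of 23065 probes (13.5%) did. VIT_05s0094g00200 was higher (difference 2.14, adjusted p = 0.0261), as was VIT_05s0094g00220 (1.43, adjusted p = 0.00851), and VIT_08s0007g06040 was lower (-0.89, adjusted p = 0.0344). Since 1 column carries no plant of its own, these p-values treat 2 samples as 3. Without that column 0 of 9 passed in limma, the lowest adjusted p being 0.0725, where 0.408% of all probes passed. An unadjusted p under 0.05 was then seen at 4 of the 9 and at 19.9% of all probes.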

How the data were processed

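Leaf RNA of 3 control and 3 labelled overexpression samples was measured on 1-colour arrays, and groups and replicate numbers came from the sample titles. Spot intensity had been extracted by the authors with Agilent Feature Extraction 10.5.1.1, which subtracts background and spatial trend, per the file headers. The deposited files also mark each spot as 0 or 1 for being saturated, an outlier or well above background, and the deposited value table gives intensity with scale and centring unstated. Its rows were matched to the scanner files by probe name. For at least 99.8% of probes in 5 of its 6 columns, the scanner signal times 1 number per array gave the table's value to 0.1%, so those columns are linear, scaled by array and not centred by probe. The 6 column medians ran from 490.0 to 506.

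The members and lists were chosen with earlier results of these data known. The log2 of the processed signal minus that of the array's 75th percentile was fitted with limma 3.58.1 in R 4.3.3 (lmFit, eBayes, no covariate). Control spots were left out and outlier spots were missing. Probes well above background on all usable spots of at least 1 group, with 2 usable spots per group, were tested with Benjamini-Hochberg adjustment over all 23752, and a probe passed at 0.05. The fit was tested on simulated data with known log2 differences of 1, 2, 3 and 4. At the threshold it recovered 0.8%, 41.2%, 72.8% and 90.4% of them. In the simulation each probe had the same spread on every array and no scan effect, whereas OX array 3 stood apart in the data. Recovery with such an array was not tested. A probe that did not pass is thus not shown to be unchanged. Intervals are 95% and come from limma. The number of arrays limits the precision.

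All members are named. Other loci are named only when nearest to a family's mean profile, 2 per family. Lists by product name (other chitinases, other glucanases, thaumatin-like proteins) and leaf and berry markers were planned but not run, since the reference table pairs no locus name of these files with a product. By the recorded scan time, scan 1 held control array 1 and OX array 1, scan 2 held control arrays 2 and 3 with OX array 2, and scan 3 held OX array 3 alone, where OX stands for labelled overexpression. Alternatives were normexp (offset 50, median spot signal), quantile normalization, median scaling, a percentile over commonly detected probes, no filter, a filter on all 6 arrays, outlier spots kept, array weights, the value table with and without its last column, scan or replicate number as a block, and each array left out.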

Additional observations from a re-analysis of the deposited data

How the results depend on the processing

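Over 9 tested enzymes and 18 alternatives, 148 of 162 differences kept their direction and their side of the threshold. Of the rest, 2 newly passed and 12 reversed, and 6 enzymes reversed under no alternative. No filter, the filter on all 6 arrays, outlier spots kept and the replicate block could not change an enzyme's difference, only its p-value. Median scaling and the percentile over commonly detected probes shifted every enzyme's difference by the same number. The tally therefore overstates how many settings were free to differ. The reversals were of VIT_05s0094g00340, VIT_08s0007g06030 and VIT_08s0007g06040. With array weights VIT_05s0094g00340 was -0.30 and VIT_08s0007g06040 -0.68, in the value table -0.28 and -0.89, in the table without labelled overexpression replicate 3 -0.31 and -0.88, and with scan as a block -0.42 and -0.92, where VIT_08s0007g06030 was -0.0071. With 1 array left out VIT_05s0094g00340 ran from -0.31 to 2.01, VIT_08s0007g06040 from -0.88 to 0.70 and the CARPO probe VIT_08s0007g07670 from -1.0 to 1.29. The CARPO probe was -1.14 with array weights and -0.88 with scan as a block, where the lone array of scan 3 adds nothing to the difference. Enzymes past the threshold numbered 3 in the value table and 0 in the other 17 alternatives.

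Probes past the threshold numbered 19 in all, 0 with normexp (1548 at an unadjusted p under 0.05), 0 without a filter (3404), 7 with the filter on all 6 arrays, 228 with array weights, 3114 in the value table, 94 in it without labelled overexpression replicate 3, 45 with scan as a block and 0 with the replicate block (3094). Leaving out 1 array gave 0 to 116, with 0 without any control array or labelled overexpression replicate 1 (2087 to 2950 at an unadjusted p under 0.05). The cause of these shifts was not tested. Normexp moved the median difference of all probes to 0.13 and that of the 9 enzymes from 1.14 to 0.76, with 4 ratios over 1.5 times smaller. Enzymes whose groups did not overlap, 2 of 9, were recounted with 1 array left out, an alternative chosen after seeing the data. There were 4, 3 and 2 without control replicate 1, 2 or 3 (32.8%, 29.7% and 29.2% of all probes). There were 2, 6 and 4 without labelled overexpression replicate 1, 2 or 3 (34.9%, 40.7% and 39.3%). Of the last 4, 3 lay above the controls (19.2% of all) and 1 below (20.1%). Deviations from the group means correlated at 0.253, 0.0499 and -0.0149 between arrays of the same number. Arrays of different numbers had -0.329 to 0.283, a range that holds those values, so the numbers were not taken to pair samples. The replicate block holds 1 array of each group per number, so it could not move the differences, and that of the CARPO probe stayed at 0.47. It changed no call among the enzymes. Dim spots limit what can be read of VIT_05s0094g00280.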
